A study of Homo sapiens with 12 samples.

Results

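The DNA mismatch repair genes examined were MSH6, MSH3, PMS2, PMS1, MLH3 and EXO1, which are the 6 rows, of 58302 in the deposited expression table, that carry these gene names. Their levels were followed over 12 libraries of 3 established prostate lines, sequenced as RNA and given in FPKM, that is reads scaled for exon length and for the depth of the library. The study screened chloride channel genes for a difference between BPH-1, a benign prostate line, and PC3, a prostate cancer (PCa) line, and libraries of a further PCa line, DU145, belong to the same table. The comparisons below are PC3 with BPH-1, DU145 with BPH-1, and PC3 with DU145.

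BPH-1, a line from benign prostatic hyperplasia epithelium immortalised with a viral T antigen, gave 4 libraries. PC3, derived from a bone metastasis, and DU145, derived from a brain metastasis, are both PCa lines and gave 4 libraries each. All 3 lines carried the genotype label WT, had no treatment in their labels and grew in the same medium, Dulbecco's modified Eagle's medium with 10% fetal bovine serum and antibiotics. Each line is 1 line of one origin, so a difference between lines cannot be told apart from a difference between benign and cancer cells. The labels do not say whether the libraries of a line came from separate cultures, so p-values measure only the spread between these libraries, which may be technical. Depth was between 12950663 and 16309559 reads per library.

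Mismatch repair corrects bases that are mispaired or looped out after replication. MutS proteins find the error, and MSH6 and MSH3 are the subunits that set what is found: MSH6 serves single mismatches and very short loops, and MSH3 serves larger insertion and deletion loops. MutL proteins (PMS2, PMS1, MLH3) are then recruited, with PMS2 carrying the endonuclease that nicks the new strand, and the exonuclease EXO1 removes the strand for resynthesis. Loss of this pathway leaves unstable microsatellites in tumours, and in prostate cancer it is known in a minority of cases.

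The promoters are shown first because the start regions of the genes differ in base composition and motifs. Whether these bear on the levels was not tested. For MSH6, PMS2 and MLH3 the stretch printed is the part of the 250 bases before the start that lies outside annotated UTRs, and for MSH3 and EXO1 it is 30 bases around a motif. All are RefSeq sequences on GRCh38.p14, 5′ to 3′ on the strand of the gene. The start used is the RefSeq start nearest to the start of the gene span given below, and these starts can differ. The MSH6 and PMS1 windows lie wholly within those spans, and the EXO1 window mostly so.
MSH6 (chr2:47782895-47783081, plus strand): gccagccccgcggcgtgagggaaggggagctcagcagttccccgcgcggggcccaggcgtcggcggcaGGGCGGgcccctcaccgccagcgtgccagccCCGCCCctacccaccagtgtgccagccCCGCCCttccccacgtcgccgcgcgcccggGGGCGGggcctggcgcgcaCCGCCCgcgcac
PMS2 (chr7:6009126-6009244, minus strand): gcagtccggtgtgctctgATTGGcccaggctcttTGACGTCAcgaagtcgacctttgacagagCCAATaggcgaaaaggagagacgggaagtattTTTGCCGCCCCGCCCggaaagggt
MLH3 (chr14:75051533-75051717, minus strand): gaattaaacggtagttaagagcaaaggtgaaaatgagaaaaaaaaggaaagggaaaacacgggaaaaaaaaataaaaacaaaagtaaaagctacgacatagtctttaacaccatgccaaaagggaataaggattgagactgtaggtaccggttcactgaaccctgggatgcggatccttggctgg
MSH3 (chr5:80654536-80654565, plus strand): gcggtcaagTTTGGCGCGAAAttgtggccg
EXO1 (chr1:241848139-241848168, plus strand): gggatacgcgtTGACGTCAcatcctctggg
In the stretches of MSH6, PMS2 and MLH3 the capitals mark matches, on either strand, to the GC box GGGCGG, the CCAAT box CCAAT, the cAMP response element TGACGTCA and the E2F words TTTCCCGC, TTTCGCGC, TTTGCCGC and TTTGGCGC. In the sites of MSH3 and EXO1 they mark only the E2F words and the cAMP response element.

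The MSH6 stretch held 5 GC boxes, and the whole window of 250 bases had a GC content of 81.2%, against a median of 58% over all promoters. The MLH3 window, at 47.2%, held none of the 4 kinds of motif. An E2F word, the kind of site through which replication genes are switched on in S phase, lay before MSH3 and PMS2, that is in 2 of 6 windows, against 2.79% of 35116 promoter windows. In MSH3 the E2F words overlapped each other, starting 107 and 103 bases before the start, and in PMS2 the E2F word overlapped a GC box and began 43 bases before the start. The cAMP response element lay before PMS2 and EXO1 (1.65% of all windows), and the CCAAT box before MSH6, PMS2 and PMS1 (32.0% of all windows). A GC box was present in 5 of 6 windows, all but that of MLH3, against 42.6% of all windows. A match is a run of letters and not a measured binding site.

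Several facts about the libraries touch the results. KRT8 and KRT18, keratins of simple epithelium, were present in all 12 libraries. KRT18 was higher in DU145 (52.8 to 99.2 FPKM) than in BPH-1 (31.4 to 44.9 FPKM), and KRT8 and KRT19 overlapped between them. EPCAM and CDH1, the epithelial adhesion molecule and E-cadherin, were between 57.7 and 63.2 FPKM and between 16.3 and 44.6 FPKM in BPH-1. They were between 6.92 and 11.1 FPKM and between 0.427 and 1.42 FPKM in PC3. In the libraries labelled DU145 they were at most 0.573 and 0.297 FPKM. DU145 is known as an epithelial line that makes E-cadherin, so its EPCAM and CDH1 values go against the label of all 4 libraries, whose identity was not tested. DU145 here means the libraries so labelled. Over the 5 epithelial markers the summed level was between 149 and 208 FPKM in BPH-1, between 220 and 367 in PC3 and between 84.1 and 163 in DU145, and their part in the results was not tested. The leukocyte genes PTPRC and LYZ were at 1.35 and 7.76 FPKM in DU145 replicate 1, at 1.25 and 8.63 FPKM in replicate 2, and at 0 in replicates 3 and 4. Over 3 immune markers the summed level was between 8.76 and 11.6 FPKM in BPH-1, between 0 and 9.88 in DU145 and between 0.0281 and 0.167 in PC3, with CD3E at 0 in all libraries. In BPH-1 PTPRC was between 1.15 and 1.54 FPKM and LYZ between 7.61 and 10.1 FPKM. The endothelial marker PECAM1 was at 0.198 and 0.224 FPKM in DU145 replicates 1 and 2 and at 0 in 3 and 4. The stromal markers DCN and LUM were at 0 in replicates 1 and 2. In replicates 3 and 4 DCN was at 0.373 and 0.214 FPKM and LUM at 0.108 and 0.140 FPKM. The other stromal and endothelial markers were above 0 in all DU145 libraries. So DU145 replicates 1 and 2 stand apart from replicates 3 and 4 in these genes. The differences of the members in DU145 were also computed with either pair alone.

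The libraries also differed in how expression followed the GC content of genes. Genes with 40% GC stood above genes with 60% GC by between 1.31 and 1.59 on the log2 scale in the BPH-1 libraries. In PC3 this contrast was 0.05, -0.11, -0.69 and -1.51 in replicates 1 to 4, and in DU145 it was -1.504, 0.27, -2.19 and -0.08. PC3 replicate 4 and DU145 replicates 1 and 3 therefore stood apart from the other libraries of their lines. The 6 mismatch repair genes lie at the side of low GC, from 38.2% for PMS1 to 45.7% for PMS2. The difference of the mean trend from BPH-1 was -1.65 (PC3) and -1.84 (DU145) at PMS1 but only -0.05 and -0.14 at PMS2. The differences of the members, and the counts over lists and neighbours, are therefore also given with every library's GC trend divided out, a correction that also removes any true difference between lines that follows GC content.

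**Figure D1:**
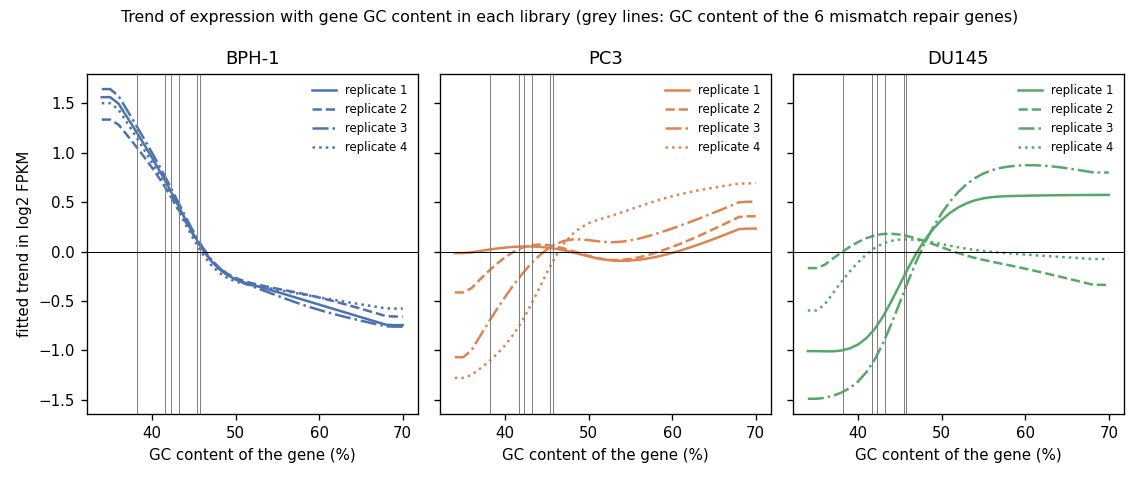
Fitted trend of log2 FPKM (vertical axis) against the GC content of the gene in percent (horizontal axis) for each library of BPH-1, PC3 and DU145, with 1 line per replicate. Grey vertical lines mark the 6 mismatch repair genes, between 38.2% and 45.7% GC. The BPH-1 curves lie highest at PMS1, MSH3, MLH3 and EXO1 (38.2% to 43.2%) and come near the other lines at MSH6 and PMS2, and those of PC3 replicate 4 and DU145 replicates 1 and 3 fall below the other replicates of their lines.

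In PC3 compared with BPH-1, both MutS genes, 2 of the 3 MutL genes and EXO1 were lower, and PMS2 was not past the threshold. Thus 5 of 6 genes passed an adjusted p of 0.05 (limma, Benjamini-Hochberg over 16407 genes) and were lower, and 40.4% of all genes tested were called lower in PC3. The same 5 genes had no overlap between the libraries of PC3 and BPH-1, which held in this direction for 38.6% of all genes. Their mean FPKM in PC3 was between 2.44 times (EXO1) and 6.71 times (PMS1) below that in BPH-1. After the GC trend was divided out the same 5 genes were called lower, where the share over all genes was 43.1%.

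In DU145 compared with BPH-1, 4 of 6 genes were lower (MSH6, MSH3, PMS1 and MLH3; limma over 17017 genes), with 32.4% of all genes called lower. Those without overlap between the libraries were MSH6, MSH3 and PMS1, 3 of 6, against 30.6% of all genes. Dividing out the GC trend left MSH6 and MSH3 lower and PMS2 called higher, and PMS1 and MLH3 lost the call, while 37.0% of all genes were called lower and 25.2% higher. With GC and transcript length divided out together, MSH6 and MSH3 were the 2 genes called, both lower, against 38.5% of all genes. Both comparisons use the same BPH-1 libraries, so they are not independent of each other.

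Between PC3 and DU145, 0 of 6 genes passed the threshold as deposited (limma over 16421 genes), where 48.3% of all genes passed in either direction. At an unadjusted p under 0.05 it was 1 gene, PMS1, where the share over all genes is not given here. With voom on recovered reads it was 0, while 3215 of all genes were called higher and 4577 lower in PC3. After correction for GC content, MSH3 was higher and PMS1 lower in PC3, 2 of 6, against 57.0% of all genes in either direction.

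**Figure D2:**
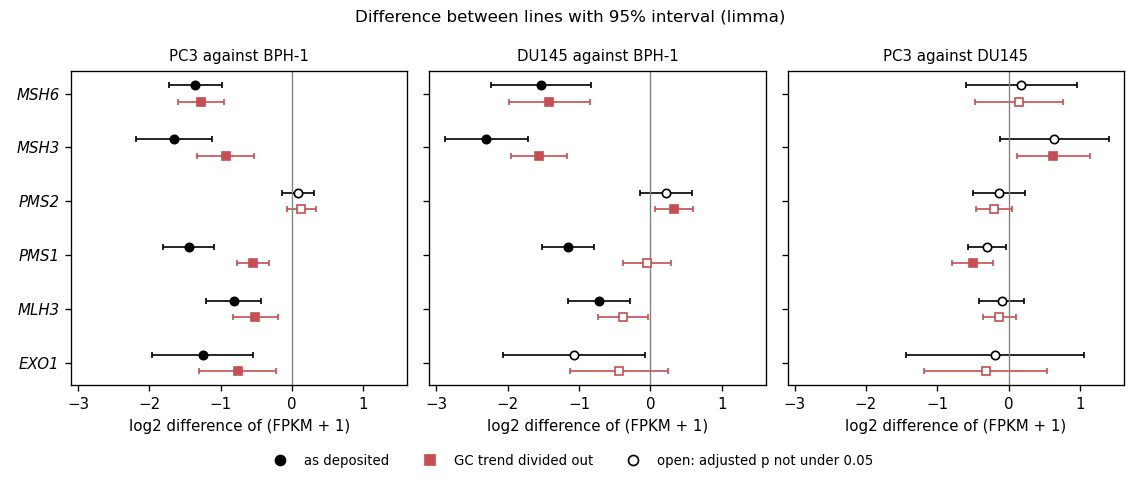
Difference between lines on the log2(FPKM + 1) scale (horizontal axis) with its 95% interval from limma, for each gene (vertical axis) and comparison, as deposited (black circles) and with the GC trend divided out (red squares); open symbols did not reach an adjusted p under 0.05. MSH6 and MSH3 lie left of 0 in both comparisons with BPH-1 by either measure, whereas PMS1 in DU145 moves from -1.15 to -0.05.

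MSH6 (ENSG00000116062, chr2:47695530-47810101 on GRCh38, plus strand) encodes the partner that recognises base mismatches. Its level was 8.59, 7.17, 7.47 and 6.99 FPKM in BPH-1 replicates 1 to 4, and 2.95, 2.96, 2.13 and 1.502 FPKM in PC3. The DU145 libraries had 0.934, 3.31, 0.885 and 3.78 FPKM. In bulk RNA, fewer cells expressing a gene and less RNA per cell cannot be told apart. Every PC3 and DU145 library lay below every BPH-1 library, and within DU145 replicates 1 and 3 lay well below replicates 2 and 4. The mean was 7.56 ± 0.718 (SD, n = 4) in BPH-1 and 2.39 ± 0.706 in PC3, a 3.17 times lower level, with a log2 difference of -1.36 ± 0.16 (SE; adjusted p = 6.94e-05).

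In DU145 the mean of MSH6 was 2.23 ± 1.54 FPKM, 3.39 times below BPH-1, with a log2 difference of -1.54 ± 0.32 (adjusted p = 0.00193). Exact permutation tests (two-sided) gave p = 0.0286 for each line against BPH-1, the smallest p that 4 against 4 libraries allow. MSH6 was the gene least touched by the GC trend besides PMS2: the trend itself differed by -0.10 (PC3) and -0.20 (DU145) at its GC content of 45.4%, and the corrected log2 differences were -1.28 ± 0.14 and -1.42 ± 0.25. With DU145 replicates 2 and 4 alone the log2 difference was -0.91, with replicates 3 and 4 alone -1.51 (adjusted p = 0.00872), and with replicates 1 and 2 alone -1.56 (adjusted p = 0.00402). PC3 and DU145 overlapped in MSH6, with a log2 difference of 0.18 and an interval from -0.60 to 0.95 that includes differences in either direction. Of the annotated exon bases of MSH6, 1785 (16.2%) are shared with FBXO11 on the other strand, and the use of strand in the counting is not stated, so part of the MSH6 reads could belong to FBXO11.

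MSH3 (ENSG00000113318, chr5:80654648-80876460, plus strand) encodes the partner that recognises longer loops, such as those in repeat tracts. Its level was 8.24, 8.87, 9.06 and 7.91 FPKM in BPH-1, and 2.72, 2.68, 2.47 and 0.728 FPKM in PC3. The 4 DU145 libraries gave 0.456, 1.92, 0.306 and 1.498 FPKM. No library of either PCa line reached the BPH-1 range, and PC3 replicate 4 lay far below the other 3 PC3 libraries. The mean fell from 8.52 ± 0.536 FPKM in BPH-1 to 2.15 ± 0.954 in PC3 and 1.05 ± 0.790 in DU145 (SD, n = 4), which is 3.96 and 8.15 times lower.

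The log2 difference of MSH3 was -1.66 ± 0.24 in PC3 (adjusted p = 0.000196) and -2.30 ± 0.26 in DU145 (adjusted p = 4.55e-05), with p = 0.0286 in each exact permutation test. On this log2 scale MSH3 had the largest difference of the 6 genes in both comparisons as deposited. The GC trend at its GC content of 41.6% differed by -0.93 (PC3) and -1.14 (DU145), and with it divided out the log2 differences were -0.93 ± 0.18 (adjusted p = 0.00128) and -1.56 ± 0.17 (adjusted p = 5.91e-05). Corrected levels were from 5.005 to 5.67 in BPH-1, from 1.24 to 2.98 in PC3 and from 0.676 to 1.73 in DU145. With DU145 replicates 2 and 4 alone the log2 difference was -1.82, with replicates 3 and 4 alone -2.40, and with replicates 1 and 2 alone -2.20. PC3 and DU145 differed in MSH3 by 0.64 (interval -0.12 to 1.40, adjusted p = 0.148), and by 0.63 (adjusted p = 0.0399) once the GC trend was divided out. Without PC3 replicate 4 the value as deposited was 0.91 (adjusted p = 0.0344).

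**Figure D3:**
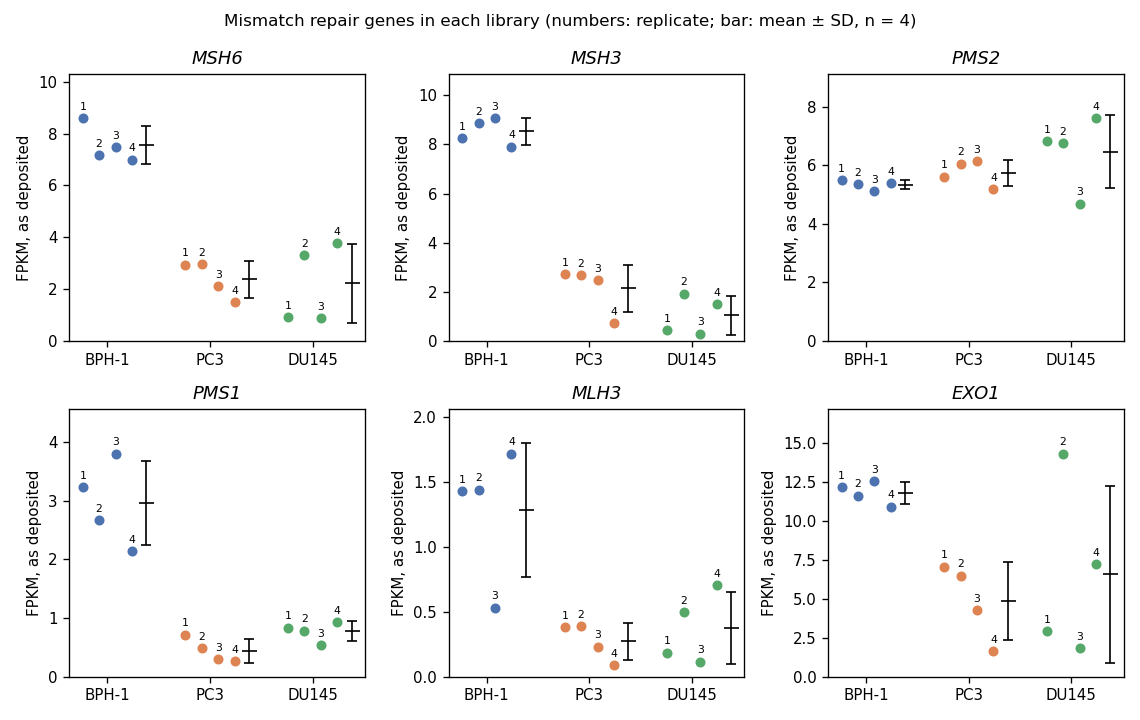
FPKM as deposited (vertical axis) of the 6 genes in each library of BPH-1, PC3 and DU145 (horizontal axis), with numbers for the replicate and bars for the mean ± SD of 4 libraries. MSH6, MSH3 and PMS1 show no overlap of either PCa line with BPH-1, PMS2 lies between 4.69 and 7.60 FPKM in all lines, and EXO1 in DU145 spans 1.82 to 14.3 FPKM.

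PMS2 (ENSG00000122512, chr7:5973239-6009125, minus strand) encodes the MutL subunit with the nicking activity. Its level was 5.49, 5.34, 5.12 and 5.38 FPKM in BPH-1, and 5.60, 6.05, 6.14 and 5.17 FPKM in PC3. In DU145 it was 6.82, 6.74, 4.69 and 7.60 FPKM. The lines overlapped, with DU145 replicate 3 the lowest library of all and the other 3 DU145 libraries the highest. Means were 5.33 ± 0.156, 5.74 ± 0.446 and 6.46 ± 1.24 FPKM (SD, n = 4) in BPH-1, PC3 and DU145.

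The log2 difference of PMS2 from BPH-1 was 0.09 in PC3 (interval -0.14 to 0.31, adjusted p = 0.453) and turned to -0.14 when libraries were scaled to the same summed FPKM. In DU145 it was 0.22 (interval -0.15 to 0.59, adjusted p = 0.266) as deposited, and 0.34 ± 0.12 (adjusted p = 0.0321) with the GC trend divided out. Corrected levels were from 4.80 to 5.30 in BPH-1, from 5.48 to 5.90 in PC3 and from 6.03 to 7.93 in DU145. These ranges do not overlap, but the share of all genes so separated was not computed for corrected levels. PC3 was at 0.13 (adjusted p = 0.226) after correction. The call in DU145 was absent again with length divided out as well (0.18, adjusted p = 0.21). Upper-quartile scaling called PMS2 higher in both lines, by 0.44 (adjusted p = 0.0075) in PC3 and 0.47 (adjusted p = 0.03) in DU145, where this scaling moved the median of all genes by 0.23 and 0.16. In DU145 PMS2 was called higher in 4 of the 25 alternatives run, with a lowest adjusted p of 0.0179 (limma).

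Reads of PMS2 can be split with near-identical relatives, so its values are uncertain. Of 11 relatives in the table (PMS2CL and genes named PMS2P), 8 were tested, and none was called lower in either comparison with BPH-1 as deposited. In PC3 5 of the 8 were called higher (PMS2P1, PMS2P10, PMS2P3, PMS2CL and PMS2P5), and in DU145 7 of the 8, with a median log2 difference of 1.04 against -0.03 over all genes tested. Of all genes tested, 4452 of 16407 were called higher in PC3 and 5161 of 17017 in DU145, and 3714 and 4293 with the GC trend divided out. With the GC trend divided out, 3 were higher in PC3 (PMS2P1, PMS2P10 and PMS2P5) and 6 in DU145, and PMS2P2 was called lower in both lines (-0.27 and -0.24, adjusted p = 0.013 and 0.0133). With length divided out as well, 2 were higher in PC3 and 5 in DU145, and PMS2P2 stayed lower. Of all genes tested, 3521 and 4092 were then called higher. Several of these calls rest on few reads, near the filter of 10. PMS2P2 had 10 to 12 reads in BPH-1, 6 to 13 in PC3 and 9 to 16 in DU145. In the same order PMS2P5 had 9 to 15, 12 to 19 and 46 to 56 reads, and PMS2P10 12 to 14, 24 to 32 and 65 to 86. As deposited PMS2P1 rose most, from 2.70 ± 0.670 FPKM in BPH-1 to 6.16 ± 0.626 in PC3 and 15.7 ± 4.08 in DU145 (log2 differences 0.96 ± 0.15 and 2.16 ± 0.22, and 0.60 and 1.58 corrected for GC content). PMS2P1 was therefore above PMS2 itself (5.33, 5.74 and 6.46 FPKM) in the PC3 and DU145 means and below it in BPH-1, with overlapping libraries in PC3. PMS2CL did the same, at 5.24 FPKM in BPH-1, 7.17 in PC3 and 12.9 in DU145. In DU145 PMS2P10 (7.81 FPKM) was above PMS2 too, and PMS2P5 (6.47 FPKM) was level with it. The deposited PMS2 values came out as whole reads with a gene length of 5775 bases, not with the 7036 bases that GENCODE 29 gives.

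PMS1 (ENSG00000064933, chr2:189784085-189877629, plus strand) encodes a MutL subunit whose part in repair is less defined. Its level was 3.23, 2.67, 3.81 and 2.14 FPKM in BPH-1, and 0.715, 0.490, 0.301 and 0.259 FPKM in PC3. DU145 gave 0.835, 0.786, 0.534 and 0.933 FPKM. The 8 libraries of the PCa lines all lay below 1 FPKM and all BPH-1 libraries above 2 FPKM. The mean of 2.96 ± 0.720 FPKM in BPH-1 compared with 0.441 ± 0.208 in PC3 and 0.772 ± 0.170 in DU145 (SD, n = 4), 6.71 and 3.84 times lower.

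On the log2 scale PMS1 differed by -1.45 ± 0.16 in PC3 (adjusted p = 3.28e-05) and by -1.15 ± 0.16 in DU145 (adjusted p = 0.000195), with p = 0.0286 in both exact permutation tests. With a GC content of 38.2% PMS1 was the gene with the largest difference in GC trend, -1.65 (PC3) and -1.84 (DU145). Without this trend the log2 difference was -0.55 ± 0.10 in PC3 (adjusted p = 0.000857) and -0.05 ± 0.15 in DU145 (interval -0.38 to 0.28, adjusted p = 0.795). With DU145 replicates 1 and 2 or 3 and 4 alone it was, as deposited, -1.11 and -1.18 (adjusted p = 0.0035 and 0.00384). The corrected levels were 1.41, 1.29, 1.59 and 0.967 in BPH-1, 0.705, 0.556, 0.485 and 0.556 in PC3, and 1.67, 0.784, 1.43 and 1.14 in DU145. PC3 was then still below all BPH-1 libraries, and DU145 overlapped with BPH-1. The share of all genes so separated was not computed for corrected levels. In DU145 the correction widened the spread of PMS1, from 1.75 to 2.13 times between the lowest and highest library. Replicates 1 and 3 were the highest DU145 libraries after it. Between PC3 and DU145 PMS1 was at -0.30 as deposited (adjusted p = 0.0619) and at -0.50 ± 0.13 after correction (adjusted p = 0.0079). The difference as deposited reached the threshold without DU145 replicate 3 (-0.37, adjusted p = 0.0311) and without PC3 replicate 1 (-0.39, adjusted p = 0.0224).

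MLH3 (ENSG00000119684, chr14:75013764-75051532, minus strand) encodes the MutL subunit best known for crossovers in meiosis. Its level was 1.43, 1.44, 0.531 and 1.72 FPKM in BPH-1, and 0.379, 0.390, 0.229 and 0.0893 FPKM in PC3. The DU145 values were 0.184, 0.496, 0.116 and 0.704 FPKM. BPH-1 replicate 3 lay far below the other BPH-1 libraries, though still above all PC3 libraries, and it was passed by DU145 replicate 4. MLH3 had the lowest mean of the 6 genes in each line, with as few as 24 reads in PC3 replicate 4 and 37 in DU145 replicate 3.

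The mean of MLH3 was 1.28 ± 0.516 FPKM in BPH-1, 0.272 ± 0.142 in PC3 and 0.375 ± 0.275 in DU145 (SD, n = 4), 4.70 and 3.41 times lower. Since levels near 1 FPKM are compressed on the log2(FPKM + 1) scale, the log2 differences were -0.82 ± 0.17 in PC3 (adjusted p = 0.00213) and -0.72 ± 0.20 in DU145 (adjusted p = 0.00938). The exact permutation test gave p = 0.0286 in PC3 and 0.0571 in DU145. Corrected for GC content, MLH3 was at -0.51 ± 0.14 in PC3 (adjusted p = 0.00963), where the lines then overlapped, and at -0.38 ± 0.16 in DU145 (adjusted p = 0.0583). With DU145 replicates 2 and 4 alone it was -0.48 (adjusted p = 0.114), with replicates 3 and 4 alone -0.69 (adjusted p = 0.0586), and with replicates 1 and 2 alone -0.74 (adjusted p = 0.0308).

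EXO1 (ENSG00000174371, chr1:241847967-241895148, plus strand) encodes the exonuclease that removes the strand with the error. Its level was 12.2, 11.6, 12.6 and 10.9 FPKM in BPH-1, and 7.07, 6.48, 4.25 and 1.62 FPKM in PC3. Those of DU145 were 2.91, 14.3, 1.82 and 7.22 FPKM. All PC3 libraries lay below BPH-1, whereas DU145 replicate 2 lay above every BPH-1 library and replicate 3 was 7.87 times below replicate 2. The mean was 11.8 ± 0.707 FPKM in BPH-1, 4.85 ± 2.48 in PC3 and 6.57 ± 5.67 in DU145 (SD, n = 4).

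EXO1 was lower in PC3 by a log2 difference of -1.25 ± 0.31 (limma, adjusted p = 0.00548, exact permutation p = 0.0286), and by -0.76 ± 0.24 with the GC trend divided out (adjusted p = 0.0175). In DU145 the difference was -1.07 ± 0.45 (interval -2.07 to -0.07, adjusted p = 0.0598) and did not pass. With the GC trend divided out it was -0.44 ± 0.30 (adjusted p = 0.23), and with length as well -0.53 (adjusted p = 0.169). As deposited, the difference without replicate 2 was -1.51 (adjusted p = 0.00301). With DU145 replicates 3 and 4 alone it was -1.41 (adjusted p = 0.0169), with replicates 1 and 2 alone -0.73 (adjusted p = 0.218), with replicates 2 and 4 alone -0.19, and with these 2 and the GC trend divided out 0.09. Scaling to the same summed FPKM (-1.29, adjusted p = 0.0266) and median-of-ratios scaling (-1.07, adjusted p = 0.046) also brought it past the threshold.

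**Figure D4:**
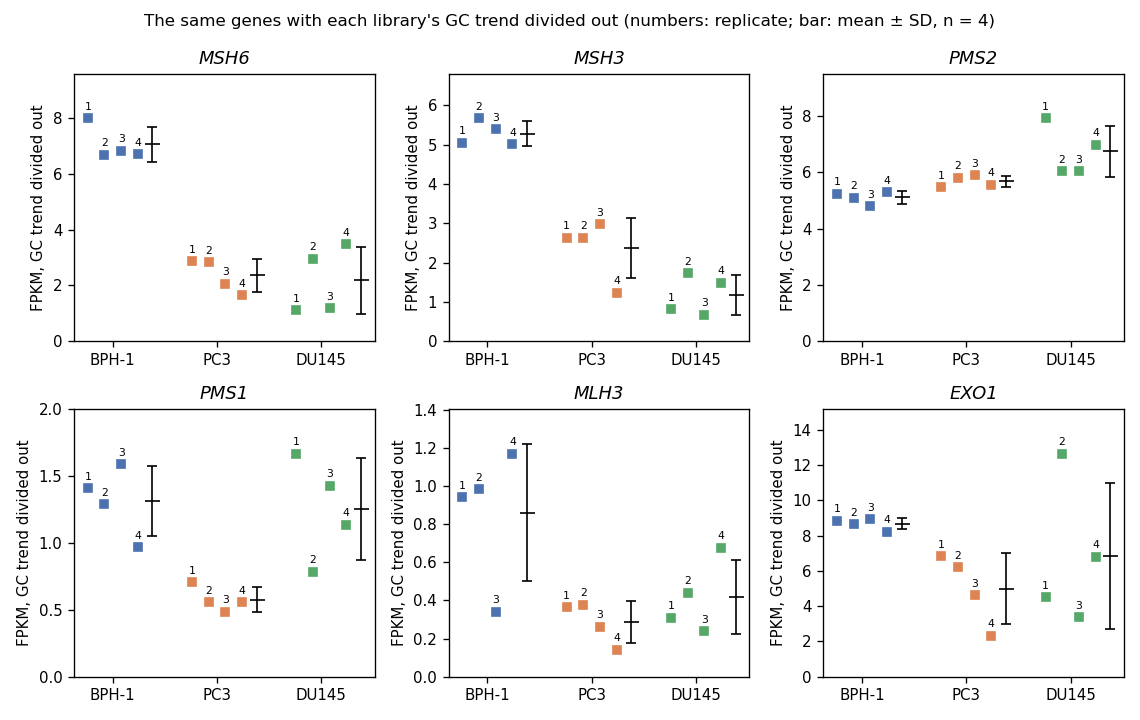
FPKM with each library's GC trend divided out (vertical axis) of the 6 genes in each library of BPH-1, PC3 and DU145 (horizontal axis), with numbers for the replicate and bars for the mean ± SD of 4 libraries. MSH6 and MSH3 in both PCa lines remain below all BPH-1 libraries, though the share over all genes was not computed for corrected levels. PMS1 in DU145 (0.784 to 1.67) overlaps BPH-1 (0.967 to 1.59), and the DU145 libraries still differ by up to 3.75 times in EXO1.

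FPKM is given per length, so levels can also be ordered within a line. In BPH-1 the order was EXO1, MSH3, MSH6, PMS2, PMS1 and MLH3, and only the neighbours MSH3 and MSH6 overlapped, with MSH3 above MSH6 in 3 of 4 libraries. In PC3 the order was PMS2, EXO1, MSH6, MSH3, PMS1 and MLH3, where only MSH3 and PMS1 were neighbours without overlap. In DU145 it was EXO1, PMS2, MSH6, MSH3, PMS1 and MLH3, where only PMS2 and MSH6 did not overlap. PMS2 was thus the fourth gene by mean in BPH-1 and the first in PC3, but it lay above EXO1 in only 2 of 4 PC3 libraries, and EXO1 lay above PMS2 in 1 of 4 DU145 libraries. MSH6 came after MSH3 in BPH-1 and before it in both PCa lines, where it was the higher in 3 of 4 PC3 and 4 of 4 DU145 libraries. The lengths behind these values sum all distinct exons, and with merged exons MSH6 ranked above MSH3 in BPH-1 as well. These orders are of the levels as deposited. With the GC trend divided out, the means of MSH6 and MSH3 were 7.06 and 5.28 in BPH-1, so MSH6 was then the higher there. They were 2.36 and 2.37 in PC3, and 2.18 and 1.17 in DU145.

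The spread within a line differed by line. Across the 6 genes the highest BPH-1 library was between 1.07 times (PMS2) and 3.23 times (MLH3) the lowest. In PC3 this was between 1.19 times (PMS2) and 4.37 times (EXO1 and MLH3), and in DU145 between 1.62 times (PMS2) and 7.87 times (EXO1). With the GC trend divided out, the DU145 range was 1.31 times (PMS2) to 3.75 times (EXO1), so DU145 replicates still differed in EXO1 and MSH6 after correction. PMS1 was the only member whose DU145 spread widened with the correction, from 1.75 to 2.13 times. DU145 replicates 1 and 3 were the lower libraries in MSH6, MSH3, MLH3 and EXO1.

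By the smallest root mean square difference of centred log2 levels over the 12 libraries, among 10499 or 10500 protein-coding genes, the genes most like MSH6 were TAOK3, ATL2 and LRP6 (0.111 to 0.125). Those most like MSH3 were TRAPPC11, KMT2E and CDCA2 (0.141 to 0.165), and those most like PMS2 were ZZEF1, CCNI and KANSL1 (0.0778 to 0.12). For PMS1 they were NAV1, RAB21 and C6orf203 (0.163 to 0.168), for MLH3 NHLRC3, TCP11L1 and RWDD3 (0.169 to 0.192), and for EXO1 EIF2S2, LYAR and NOL10 (0.136 to 0.1999). None of the 6 genes was among the 3 most like another, by levels as deposited. MLH3 could not be, since only genes with a mean of at least 1 FPKM over the 12 libraries were ranked.

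Genes near each member on the chromosome were counted within 1 Mb. In PC3 9 of 11 tested genes around MSH6, 9 of 10 around MSH3 and 9 of 12 around PMS1 were called lower than in BPH-1, against 13 of 26 around MLH3, 5 of 23 around PMS2 and 1 of 3 around EXO1. With the GC trend divided out these were 5 of 11, 8 of 10, 5 of 12, 16 of 26, 8 of 23 and 1 of 3. In DU145 the counts as deposited were 5 of 11 around MSH6, 6 of 11 around MSH3, 9 of 13 around PMS1, 12 of 26 around MLH3, 6 of 22 around PMS2 and 3 of 3 around EXO1, and with the GC trend divided out 4 of 11, 5 of 11, 6 of 13, 12 of 26, 10 of 22 and 2 of 3. Over all genes tested, 40.4% were called lower in PC3 as deposited and 43.1% with the GC trend divided out. In DU145 these shares were 32.4% and 37.0%, and several of the counts lie near them. The neighbours of MSH3 in PC3 had a median log2 difference of -1.005 as deposited and -0.59 corrected, beside -1.66 and -0.93 for MSH3.

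Genes that meet PMS1, PMS2 and MSH6 at their starts or exons were followed as well. ORMDL1, which starts head to head with PMS1, was 2.998 ± 0.136 FPKM in BPH-1, 1.84 ± 0.313 in PC3 and 4.01 ± 1.31 in DU145. It was lower in PC3 (-0.50 ± 0.11, adjusted p = 0.00331) and at 0.28 ± 0.22 in DU145 (adjusted p = 0.287), beside -1.45 and -1.15 for PMS1, and the GC correction turned ORMDL1 to 0.69 and 1.66. AIMP2, which starts next to PMS2 and encodes a scaffold of tRNA synthetases, was 18.7 ± 2.89 FPKM in BPH-1, 12.1 ± 1.53 in PC3 and 52.9 ± 13.8 in DU145. Its log2 differences from BPH-1 were -0.58 ± 0.14 and 1.43 ± 0.21 (adjusted p = 0.00445 and 0.000211), beside 0.09 and 0.22 for PMS2, and -0.98 and 0.83 with the GC trend divided out. FBXO11, whose exons overlap MSH6, was at -0.63 ± 0.19 (adjusted p = 0.0126) in PC3 and -0.83 ± 0.38 (adjusted p = 0.0835) in DU145, and at 0.83 and 0.75 with the GC trend divided out, opposite in sign to MSH6.

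Of 16 factors that act after the mismatch is found (the clamp PCNA, its loader RFC, the single-strand binder RPA, DNA polymerases, LIG1 and HMGB1), 9 were lower and 4 higher in PC3 than in BPH-1. In DU145 9 were lower and 0 higher. Of all genes tested, 40.4% were called lower in PC3 and 32.4% in DU145, and 4452 of 16407 and 5161 of 17017 were called higher. The median log2 difference over the list was -0.46 in PC3 and -0.57 in DU145, beside -0.13 and -0.03 over all genes tested. The largest fall in PC3 was RFC1, from 13.6 ± 1.06 to 3.13 ± 1.83 FPKM (-1.95 ± 0.32), and the largest rise POLD1, from 9.08 ± 1.36 to 15.5 ± 1.61 FPKM (0.72 ± 0.13). The other genes higher in PC3 were RPA2 (0.61), POLE (0.50) and POLD2 (0.35). The largest fall in DU145 was RFC3, from 12.02 ± 1.60 to 2.18 ± 2.01 FPKM (-2.25 ± 0.39).

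After correction for GC content, 11 of these 16 factors were lower in each line, and HMGB1 alone was higher, having been lower as deposited. The share of all genes then called lower was 43.1% in PC3 and 37.0% in DU145, with 3714 and 4293 genes called higher. POLD1, the largest rise in PC3 as deposited, was then at -0.16 (adjusted p = 0.308), RFC1 in PC3 was at -1.13, and RFC3 in DU145 at -1.38. PCNA stayed lower by either measure, at -0.95 and -0.81 in PC3 and at -1.73 and -1.48 in DU145. Between PC3 and DU145, 4 factors were higher in PC3 and 0 lower, namely PCNA, RFC5, POLD1 and POLE, the largest being RFC5 (1.09 ± 0.14), while 0 of the 6 mismatch repair members passed as deposited. After correction 6 factors were higher in PC3, with RPA2 and POLD2 added, and 1 was lower, POLD4 (-0.38, adjusted p = 0.017), beside MSH3 higher and PMS1 lower among the members. Over all 16421 genes, 3282 were called higher and 4655 lower in PC3 than in DU145 as deposited, and 4173 and 5184 after correction.

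**Figure D5:**
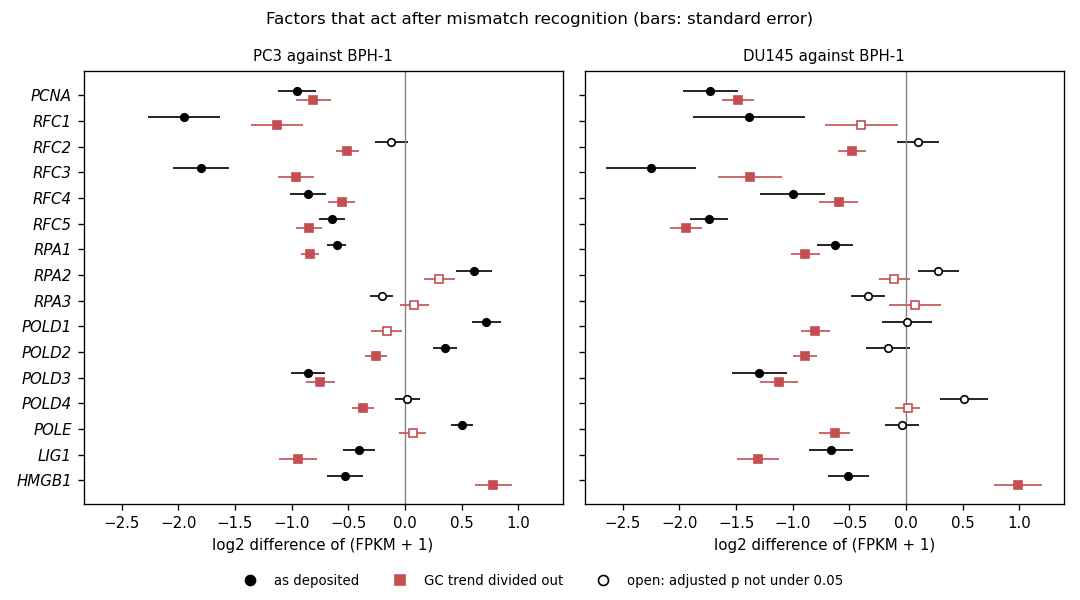
Difference from BPH-1 on the log2(FPKM + 1) scale (horizontal axis) in PC3 and DU145 for 16 factors that act after mismatch recognition (vertical axis), as deposited (black circles) and with the GC trend divided out (red squares); bars are standard errors from limma and open symbols did not reach an adjusted p under 0.05. PCNA, RFC3, RFC4, RFC5, RPA1, POLD3 and LIG1 are called lower in both panels by either measure, and HMGB1 changes side.

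The nuclease relatives of EXO1, namely FEN1, GEN1 and ERCC5, were lower in both PCa lines, 3 of 3 in each, also with the GC trend divided out. The shares of all genes called lower were 40.4% in PC3 and 32.4% in DU145, and 43.1% and 37.0% after correction. ERCC5, the nucleotide excision nuclease, was 6.84 ± 1.44 FPKM in BPH-1, 1.99 ± 1.28 in PC3 and 0.525 ± 0.515 in DU145. GEN1, the Holliday junction nuclease, was at -1.30 ± 0.17 in PC3 and -1.29 ± 0.17 in DU145, and FEN1, the flap nuclease, at -0.59 ± 0.13 and -0.58 ± 0.18. Corrected for GC content, GEN1 was at -0.70 and -0.62 and FEN1 at -1.05 and -1.26. SETD2, which writes the histone mark that MSH6 reads, was also lower as deposited, by -0.87 ± 0.23 in PC3 and -1.42 ± 0.23 in DU145, and by -0.41 (adjusted p = 0.0682) and -0.98 (adjusted p = 0.00126) after correction. Of the meiotic MutS homologues, MSH4 had at most 2 reads in any library, and MSH5 was higher in DU145 (0.67, adjusted p = 0.00254) and at 0.36 in PC3 (adjusted p = 0.0565). Its call in DU145 was lost with the GC trend divided out (0.32, adjusted p = 0.126).

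Of the 6 MCM helicase genes, which load at replication origins, 2 were lower in PC3 (MCM6 at -0.85 ± 0.21 and MCM2 at -0.76 ± 0.11) and 1 in DU145 (MCM4 at -0.40 ± 0.16). Corrected for GC content these counts were 3 (MCM2, MCM3 and MCM5) and 5 (all but MCM6), and MCM6 in PC3 was at -0.28 (adjusted p = 0.156). Of 12 genes for DNA glycosylases and the alkyl transferase MGMT, which repair single damaged bases, 4 were higher and 4 lower in PC3, and 4 were higher and 3 lower in DU145. For both lists, 40.4% of all genes were called lower in PC3 and 32.4% in DU145, and 43.1% and 37.0% after correction. Those called higher were 4452 of 16407 and 5161 of 17017, and 3714 and 4293 after correction, and several counts of these lists lie near such shares. The glycosylase list genes higher in PC3 were MGMT, OGG1, MPG and NTHL1, and those lower were MBD4, NEIL3, TDG and MUTYH. In the comparison of DU145, MGMT, OGG1, NEIL2 and SMUG1 were higher, and TDG, MBD4 and NTHL1 lower. With the GC trend divided out, 2 were higher and 4 lower in PC3 (MGMT and OGG1; UNG, MBD4, NEIL3 and MUTYH), where MPG and NTHL1 went from 0.53 and 0.49 to -0.33 and -0.19. In DU145 2 were then higher, MGMT and NEIL3, the latter going from 0.10 to 0.999 (adjusted p = 0.000954), and 5 lower, UNG, TDG, MBD4, NTHL1 and MPG. No BPH-1 library held more than 2 reads of MGMT, against 3.87 ± 0.142 FPKM in PC3 and 7.96 ± 2.26 in DU145. MBD4, a thymine glycosylase, was the largest fall in PC3 (-1.35 ± 0.17), and TDG, another, the largest in DU145 (-1.67 ± 0.30), at -1.13 and -1.14 after correction. Between PC3 and DU145, NTHL1 was the 1 gene of this list higher in PC3 (0.93 ± 0.18), and NEIL3 had the largest fall (-1.17 ± 0.39), followed by MGMT (-0.84) and MUTYH (-0.58).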

How the data were processed

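Libraries of BPH-1, PC3 and DU145 (4 each) were grouped by the labelled cell line. The authors deposited 1 value per gene and library, already normalized by them for gene length and library depth in the form of FPKM. The header names no unit, and 92.9% to 94.1% of low values came out as whole reads (tolerance 0.05) when a gene's length was taken as all distinct exons of GENCODE 29 (GRCh38) added up. The submitters' processing notes name CASAVA 1.8, HISAT2 2.1.0 and edgeR. Strand use, the counting program and filters are not given in the sources used here. Depth was recovered from these steps, and limits from it cover counting error only.

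On log2(FPKM + 1), a linear model of the 2 lines compared was fitted in limma 3.58.1 (R 4.3.3), letting the variance follow the mean. Genes needed 10 reads at the median depth in 4 libraries and 15 reads in all, and p-values were adjusted over all genes tested (Benjamini-Hochberg, 0.05). Differences on this scale understate the change of low genes. For the GC correction, a spline (5 degrees of freedom) of log2 FPKM on the GC content of the gene was fitted in each library to genes averaging at least 50 reads, and divided out. Exact permutation tests were two-sided. On simulated data with genes changed 4-fold, 96.5% (PC3 with BPH-1, 16437 genes), 98% (DU145 with BPH-1, 17045 genes) and 95.5% (PC3 with DU145, 16508 genes) were recovered. In a simulated GC trend without true changes, calls fell from 7707 to 0 of 16589 genes (PC3 with BPH-1) once the trend was divided out. The simulations gave all genes the same dispersion beyond counting error, and all libraries of a line the same GC trend. In the data the SD reached 86.3% of the mean (EXO1 in DU145) and the trend differed between replicates. These figures therefore do not show the recovery, or the effect of the correction, in the data themselves.

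Alternatives were another pseudocount (0.1), no and a stricter filter, a joint fit of all 3 lines, a block for the replicate number, other scalings, voom, a threshold on the fold, unadjusted p and leaving out each library. Added after seeing the data were GC with length, DU145 replicates 2 and 4, 3 and 4 or 1 and 2 alone, and PC3 without replicate 4. The members and the lists were chosen with earlier results of these data known. The genes named are the members, genes at the starts or exons of some, the 3 genes most like each (of those with a mean of at least 1 FPKM), and from each list those with the largest rise and fall and counts of 5 or fewer. FEN1, GEN1, PCNA, MSH5, MUTYH, PMS2CL and genes whose calls changed with the GC correction were chosen after their values were seen. They are named as well, with epithelial, immune, stromal and endothelial markers. Promoter windows were taken from RefSeq (GRCh38.p14), where all 6 genes were matched. Some genes of this pathway and others are not reported here. Other software was Python 3.11.15, numpy 2.4.6, pandas 2.3.3 and matplotlib 3.10.9.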

Additional observations from a re-analysis of the deposited data

Results flagged for a closer look

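MSH3 in PC3 replicate 4 was flagged because it lay far from the other libraries of its line. It was at 0.728 FPKM (46 reads), while the other 3 PC3 libraries lay between 2.47 and 2.72 FPKM, so the gap took up 0.872 of the range, above Dixon's 95% limit for 4 samples. It was the only flag among 18 groups of 4 libraries (6 genes in 3 lines), and chance flags about 5% of such groups. PC3 replicate 4 was also the PC3 library with the strongest GC trend (-1.51 between genes of 40% and 60% GC), and with that trend divided out MSH3 was at 1.24 in it against 2.63, 2.63 and 2.98 in replicates 1 to 3. The part of the trend in this value was not tested.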

How the results depend on the processing

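MSH6 and MSH3 kept their direction and their calls in both comparisons with BPH-1 under all 22 alternatives run for PC3 and all 25 for DU145. PMS1 and EXO1 kept them in PC3 under all 22, and MLH3 under all but the limit of 1 on the log2 difference. The number of the 6 genes called in PC3 against BPH-1 was 4 under that limit, 6 with upper-quartile scaling and 5 otherwise. With upper-quartile scaling 11152 of 16407 genes were called in all, against 11086 as deposited. PMS2 in this comparison reversed to -0.14 with the same summed FPKM. In DU145 against BPH-1 the genes called fell from 4 to 2 with GC and length divided out, and EXO1 reversed to 0.094 with DU145 replicates 2 and 4 alone and the GC trend divided out. In PC3 against DU145 the genes called rose from 0 to 2 with GC, with GC and length, and with GC and PC3 replicates 1 to 3, to 1 at an unadjusted p, to 1 with DU145 replicates 2 and 4 (with or without GC), and were between 0 and 1 without single libraries (1 without DU145 replicate 3, PC3 replicate 1 or PC3 replicate 4). There MSH6 was between -0.038 and 0.41 without single libraries (below 0 without DU145 replicate 1, -0.026, or 3), and reversed to -0.45 and -0.34 with replicates 2 and 4 alone, without and with GC. EXO1 was between -0.56 and 0.26 without single libraries (above 0 without DU145 replicate 2 or PC3 replicate 4) and reversed to 0.16 with DU145 replicates 3 and 4. MLH3 was between -0.19 and 0.012, above 0 without DU145 replicate 4. The causes were not tested. Leaving out single libraries gave 5 genes called in PC3 against BPH-1 each time and 4 to 5 in DU145 against BPH-1. Over all genes it gave 10600 to 11320 and 9616 to 11453 calls, and 7019 to 8240 in PC3 against DU145. Across the alternatives these calls were 8439 to 12541, 7721 to 11875 and 5298 to 9599, in the same order. The filter alternatives also changed the number of genes tested. Calls over all genes under the fold limit and at an unadjusted p are not given here.

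Scaling to the same summed FPKM moved the median of all genes by -0.16 (PC3) and -0.14 (DU145) against BPH-1, and upper-quartile scaling by 0.23 and 0.16. The lower share of all calls went from 59.8% to 44.7% with upper-quartile scaling and 69.7% with the same summed FPKM in PC3 against BPH-1. In DU145 against BPH-1 it was 51.6% as deposited, 42.7% with upper-quartile scaling and 61.4% with the same summed FPKM. The lines share replicate numbers, but 12 pairs with the same number had correlations between -0.65 and 0.51 in their deviations, 2 of them over 0.1, so the numbers were not taken to pair libraries. With the replicate block 5, 4 and 0 of the 6 genes were called in the 3 comparisons, as without it, and 10734, 10133 and 6745 genes in all, against 11086, 10668 and 7937. With as few as 23 reads of MSH3, 24 of MLH3 and 33 of PMS1 in single libraries, depth limits these genes most.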
